A study of Mus musculus with 20 samples.

Results

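Ube3a, Snhg14, Snrpn, Peg12, Atp10a, Herc2, Oca2, Nipa1, Nipa2 and Cyfip1 are 10 neighbours of the Magel2 and Ndn locus on mouse chromosome 7, in the domain whose human counterpart is lost or misexpressed in Prader-Willi and Angelman syndromes. They were taken as a list of names by their place in this domain, with earlier results of these data known, and all 10 were found by Ensembl identifier among the 53801 genes of the count tables. RNA was measured in mouse hypothalamus, the brain region that controls feeding, body temperature and hormone release, in C57BL/6J mice (WT) and in double knockout mice called MADIN (KO), in which Necdin (Ndn) and Magel2 are deleted. The mice lived in a cycle of 12 h of light and 12 h of dark and were sampled 6 h after light on (day) or 18 h after it (night), giving 4 groups of 5 libraries named WT_day, WT_night, KO_day and KO_night. The labels give no age, sex or parent of origin of the deletion, nor whether each library is an animal of its own. The p-values therefore describe the spread among these libraries, which may be technical. Time was read from the titles, except for KO_day 5, whose title does not begin with the letter for day or night and whose time comes from the time field of the labels. That field goes against the title for KO_night 1, 2 and 3, for KO_day 1 and 2 and for WT_night 1, which makes 6 libraries. The other 14, KO_day 5 with its single time label included, are called the libraries of agreeing labels below. The titles of WT_day 4 and WT_day 5 carry the same number, and whether they come from the same animal is not given. Their counts differed by more than sampling noise (chi-square per degree of freedom 6.92), and leaving out either of them changed no call of the 10 genes in the genotype comparisons.

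The domain is known for imprinting, in which 1 parental copy of a gene is silent. Snrpn, Snhg14, Peg12, Ndn, Magel2 and Mkrn3 are transcribed from the paternal copy. A control region at the Snrpn start governs them. Snhg14 is a very long noncoding transcript that starts upstream of Snrpn, hosts clusters of small nucleolar RNAs and runs in neurons into Ube3a on the opposite strand, where it keeps the paternal Ube3a copy silent, so that neurons make the Ube3a ubiquitin ligase from the maternal copy. Atp10a, a phospholipid flippase, has been described as imprinted in some settings, whereas Herc2, Oca2, Nipa1, Nipa2 and Cyfip1 are flanking genes that both copies express.

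In the order of the chromosome (GENCODE M21, GRCm38, the mm10 build), Cyfip1 (ENSMUSG00000030447) lies at 55841745 to 55932602, Nipa2 (ENSMUSG00000030452) at 55931287 to 55962476, Nipa1 (ENSMUSG00000047037) at 55977567 to 56019954, Herc2 (ENSMUSG00000030451) at 56050196 to 56231800 and Oca2 (ENSMUSG00000030450) at 56239760 to 56536518. Atp10a (ENSMUSG00000025324) follows at 58656166 to 58829420, Ube3a (ENSMUSG00000025326) at 59228750 to 59311536, Snhg14 (ENSMUSG00000100826) at 59307924 to 59975759 and Snrpn (ENSMUSG00000102252) at 59982495 to 60140219. Peg12 (ENSMUSG00000070526), at 62461871 to 62464510, is the single member beyond Ndn and Magel2, 80.2 kb past the end of Magel2. Among the members before Ndn, Snrpn ends nearest to it, at a distance of 2206.4 kb, and Cyfip1 farthest, at 6414.0 kb, so each of the 10 gene spans lies outside the spans of Ndn and Magel2. Cyfip1, Herc2, Oca2, Atp10a and Ube3a are on the plus strand and the other 5 on the minus strand.

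The starts of Snrpn and Ube3a are shown because the levels below turn on which part of the locus was counted. The table of start sites used here (RefSeq, GRCm38.p6) holds 9 of the 10 members, in windows from 250 bases before the start to 50 after it, and gives Snrpn 4 of them. The 3 upstream Snrpn windows are chr7:60450128-60450427, chr7:60140176-60140475 and chr7:60047929-60048228, all on the minus strand, and the first is also the listed start of Snhg14. Capitals mark a run of 49 bases that these 3 windows share.
Snrpn upstream start 1: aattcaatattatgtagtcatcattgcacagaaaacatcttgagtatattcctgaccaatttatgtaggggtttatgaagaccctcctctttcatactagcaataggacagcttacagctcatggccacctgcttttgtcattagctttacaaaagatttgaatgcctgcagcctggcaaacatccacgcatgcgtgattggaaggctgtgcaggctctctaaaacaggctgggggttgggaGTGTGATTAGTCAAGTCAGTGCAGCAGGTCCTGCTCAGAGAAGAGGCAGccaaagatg
Snrpn upstream start 2: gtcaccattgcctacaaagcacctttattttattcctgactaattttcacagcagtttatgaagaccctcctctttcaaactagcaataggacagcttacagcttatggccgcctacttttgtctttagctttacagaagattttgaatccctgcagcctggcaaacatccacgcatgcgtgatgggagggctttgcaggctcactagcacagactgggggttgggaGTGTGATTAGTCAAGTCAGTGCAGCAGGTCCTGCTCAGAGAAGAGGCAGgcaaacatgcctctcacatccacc
Snrpn upstream start 3: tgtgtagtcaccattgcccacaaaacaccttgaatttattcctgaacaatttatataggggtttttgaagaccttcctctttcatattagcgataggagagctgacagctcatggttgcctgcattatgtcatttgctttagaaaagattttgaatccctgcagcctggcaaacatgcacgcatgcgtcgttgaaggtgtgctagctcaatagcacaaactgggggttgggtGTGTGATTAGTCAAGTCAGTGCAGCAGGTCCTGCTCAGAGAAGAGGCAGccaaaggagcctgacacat
The main Snrpn start, next to the coding exons, is chr7:60005150-60005449 on the minus strand, and the Ube3a start is chr7:59228500-59228799 on the plus strand. Capitals mark each CG in these, the pair of bases at which DNA methylation sits in mammals.
Snrpn main start: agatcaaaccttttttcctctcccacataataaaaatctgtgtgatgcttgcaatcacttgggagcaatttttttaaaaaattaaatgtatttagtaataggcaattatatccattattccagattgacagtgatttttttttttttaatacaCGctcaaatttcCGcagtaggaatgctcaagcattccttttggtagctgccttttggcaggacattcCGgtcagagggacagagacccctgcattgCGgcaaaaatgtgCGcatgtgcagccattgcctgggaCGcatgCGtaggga
Ube3a start: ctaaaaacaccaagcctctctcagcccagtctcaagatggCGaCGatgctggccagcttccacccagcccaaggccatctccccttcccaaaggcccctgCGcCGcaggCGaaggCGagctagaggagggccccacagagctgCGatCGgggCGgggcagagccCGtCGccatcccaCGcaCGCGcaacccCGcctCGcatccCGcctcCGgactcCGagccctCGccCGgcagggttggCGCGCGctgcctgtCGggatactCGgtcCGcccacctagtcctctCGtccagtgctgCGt

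The 3 upstream windows were 79.7% to 81.4% identical to each other and 50.6% to 52.9% identical to the main start. Their capital run of 49 bases occurred, on either strand, in 4 of the 32851 windows of the table (0.0122%), which are these 3 and the Snhg14 entry that repeats the first. The longest run common to all 4 Snrpn windows was acgcatgcgt, which reads the same on both strands and stood in 35 of the 32851 windows (0.107%). Of the 10 members, it was found in Snrpn and Snhg14. The upstream windows hold 2, 3 and 4 CG, the main start 7, which is also the median of the table, and the Ube3a start 29, a number that 12.9% of windows reach. The runs were picked after the sequences were seen, and a match is a description of letters, not of a binding site.

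Library totals ran from 32066289 to 48697647 counts. Levels are CPM (read counts relative to the library total) scaled by TMM factors, which correct for the make-up of each library. The deleted genes followed the labels in 19 libraries. Ndn stood at 239 to 346 CPM in 9 WT libraries and at 0.248 to 1.01 in the 10 KO libraries, and Magel2 at 15.6 to 19.5 and 0.0 to 0.182. The library labelled WT_day 3 had 31.0 CPM of Ndn and 2.15 of Magel2, which is 11.3% and 12.4% of the level averaged over the 9. It is kept in the fits and shown apart below. All 9 hypothalamic markers checked (among them Oxt, Avp, Pmch and Hcrt) passed the filter on low counts, and so did 6 of 7 neuronal markers, while Tubb3 was listed at 0.

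Reads of overlapping genes on the same strand could not be told apart, whereas opposite strands kept counts of their own. Inside the members, 216 of 216 nested genes on the same strand had 0 counts in every library, Snurf and the small nucleolar RNAs in Snhg14 among them, while 10 of 11 nested genes on the opposite strand had counts. This is the pattern that counting by strand over whole gene spans leaves, and the labels call the sequencing strand-specific, but the setting used is not given, and the share of reads placed on the wrong strand was not measured. No count is therefore available here for the small nucleolar RNAs. Mkrn3 was also listed at 0 in every library.

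The 10 genes spanned a wide range of levels. Per kilobase of gene span not shared with another gene of the same strand, the mean over 20 libraries was highest for Ube3a (7.82 CPM per kb), followed by Herc2 (1.64), Snhg14 (1.56), Nipa1 (1.28), Nipa2 (0.957), Cyfip1 (0.921), Snrpn (0.294), Atp10a (0.174), Peg12 (0.123) and Oca2 (0.00174). Snhg14 at 1.74 ± 0.236 CPM per kb (SD, n = 5) and Herc2 at 1.66 ± 0.0287 in WT_night overlapped, as they did in WT_day and KO_day, while in KO_night Snhg14 (1.19 to 1.5) lay below Herc2 (1.63 to 1.68). Nipa2 (0.927 to 0.973) and Cyfip1 (0.862 to 0.933) also overlapped in WT_night and in both KO groups, but in WT_day Nipa2 (0.988 to 1.05) lay above Cyfip1 (0.865 to 0.938). The order depends on the length used. Per kilobase of exon Snhg14 came first (38.3 CPM per kb), Ube3a second (31.2), and Snrpn and Herc2 followed with 18.4 each. As the counts have the pattern of whole gene spans, introns included, these values are not densities of exon reads. The Snrpn value also divides by coding exons in bases shared with another gene of the same strand. In total counts Oca2 (8 to 38 counts per library) and Peg12 (3 to 24) were scarce, so their changes are imprecise.

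**Figure D1:**
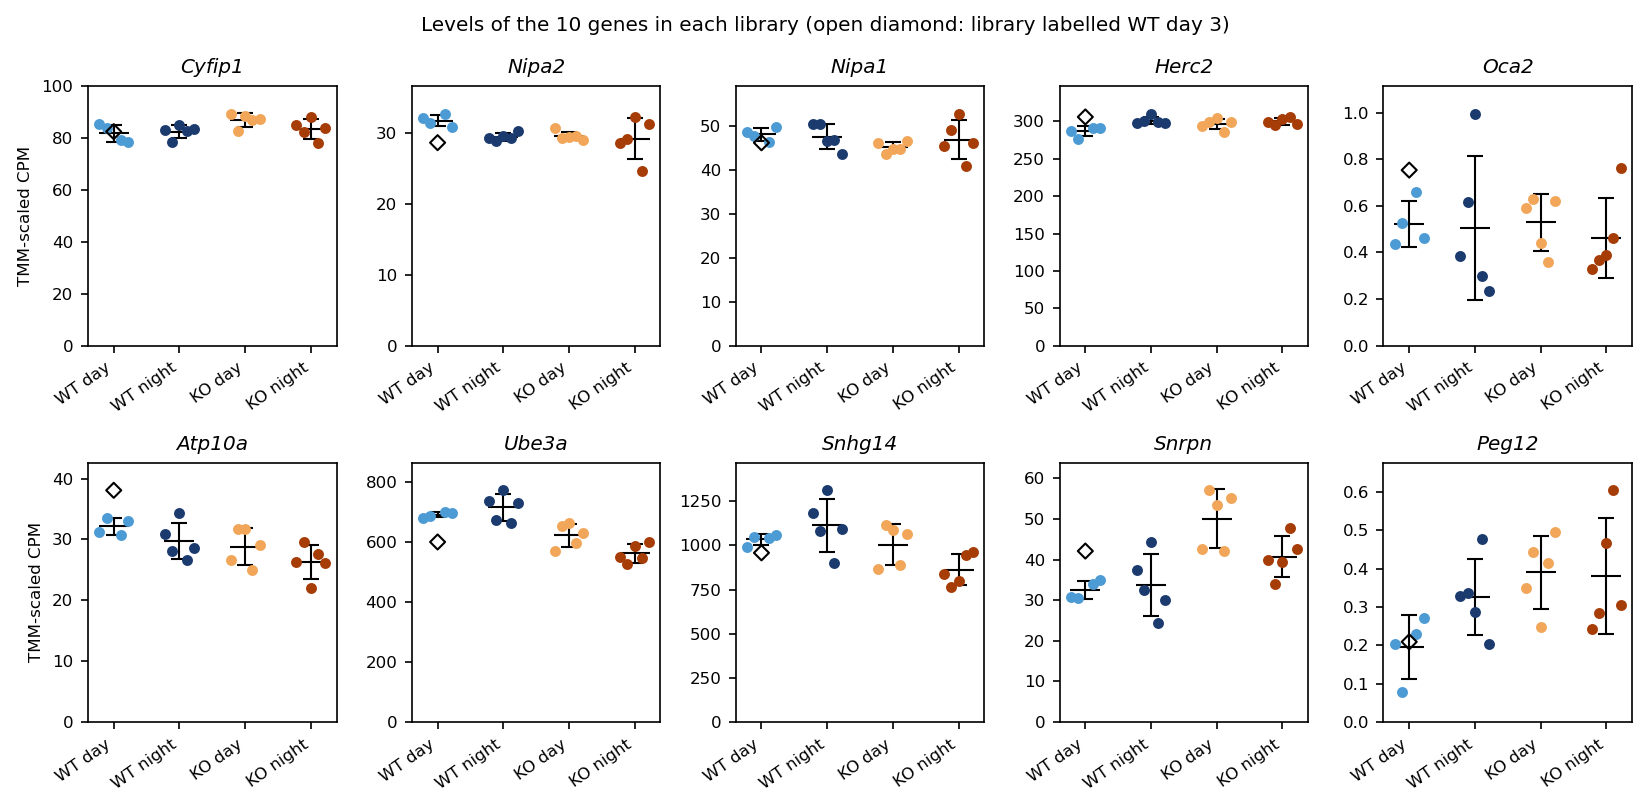
Level of each gene in TMM-scaled CPM (y axis, from 0) in the 5 libraries of each group, with the mean and SD (bars) without the library labelled WT day 3, which is the open diamond. The Ube3a points of the 9 other WT libraries, 664 to 772, lie above the 10 KO points, 526 to 664, while the Herc2 and Cyfip1 points of the groups overlap.

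Across both times, 2 of the 10 genes changed in KO: Ube3a fell and Snrpn rose. Snrpn means the annotated gene of that name, most of whose span lies upstream of the coding exons. Gm38393, an overlapping annotation that holds those exons, did not pass (-0.03, adjusted p = 0.747), and its counts may leave those exons out. In these bulk libraries, fewer cells of a type and less RNA per cell cannot be told apart. Of all 22181 tested genes, 1.32% passed in this comparison (adjusted p under 0.05, edgeR), 0.793% higher and 0.527% lower. The median log2 change of the 10 genes was -0.04, beside -0.00 over all tested genes. By day none of the 10 passed, beside 0.113% of all genes, with 4 of the 10 and 2133 of all tested genes at an unadjusted p under 0.05. DESeq2 called 1 of the 10 by day, Snrpn. At night Ube3a and Snhg14 fell, 2 of the 10, in a comparison that called 11.9% of all tested genes and 6.77% as lower. With that many genes called, the count of 2 says little about the 10 genes as a group.

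**Figure D2:**
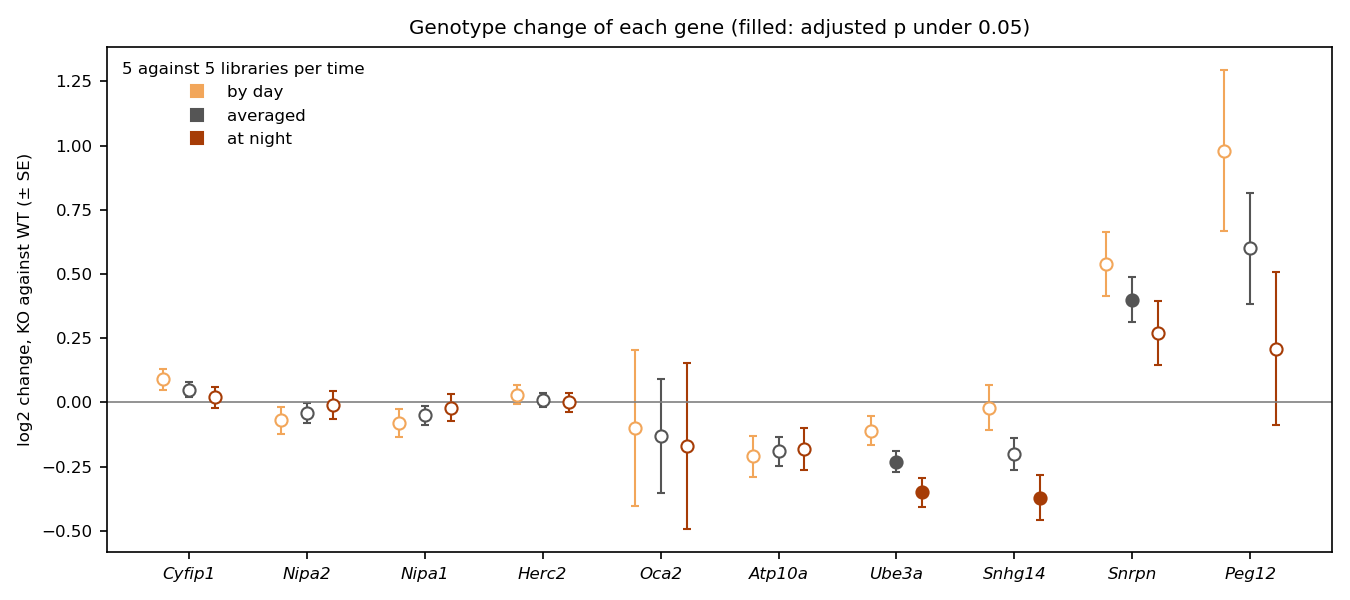
Log2 change of each gene in KO against WT (y axis), with its standard error, by day, averaged over both times and at night. Filled points passed the test: Ube3a averaged (-0.23) and at night (-0.35), Snhg14 at night (-0.37) and Snrpn averaged (0.40). The bars of Oca2 and Peg12 are the widest of the 10.

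Ube3a, the ubiquitin ligase whose loss causes Angelman syndrome, had levels of 679, 688, 699 and 697 CPM in WT_day 1, 2, 4 and 5, and of 600 in the library labelled WT_day 3. In WT_night 1 to 5 it stood at 736, 673, 772, 664 and 729. In KO_day 1 to 5 it stood at 569, 653, 664, 597 and 629, and in KO_night 1 to 5 at 550, 526, 587, 546 and 600. Each of the 9 WT libraries was above each of the 10 KO libraries, although the lowest WT value (664.2 in WT_night 4) and the highest KO value (663.6 in KO_day 3) nearly touch, and the library labelled WT_day 3 lay inside the KO range. Without it the WT mean was 704 ± 35 CPM (SD, n = 9) and the KO mean 592 ± 45.9 (SD, n = 10). The share of all tested genes that separate these WT and KO libraries without overlap was not counted.

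The fall of Ube3a was 0.23 ± 0.0405 on the log2 scale over both times (1.17-fold, adjusted p = 0.00809) and 0.35 ± 0.0573 at night (1.27-fold, adjusted p = 0.00495), while by day the change was -0.11 ± 0.0572 (adjusted p = 0.552). Leaving out the library labelled WT_day 3 gave -0.25 (adjusted p = 0.00458) over both times and -0.14 (adjusted p = 0.495) by day. The difference between night and day in the genotype change, tested as an interaction, was -0.23 ± 0.0809 and did not pass (adjusted p = 0.108), although it did without WT_night 4 (adjusted p = 0.0445). The averaged and the night call held in each of the 20 fits without 1 library. They did not hold without WT_night 1, 2 and 3 together (-0.21, adjusted p = 0.104 averaged; -0.31, adjusted p = 0.307 at night), nor with the time field of the labels (-0.23, adjusted p = 0.0560 averaged; -0.26, adjusted p = 0.918 at night) or with the 14 libraries of agreeing labels (-0.20, adjusted p = 0.108 averaged; -0.31, adjusted p = 0.196 at night).

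The annotated genes that overlap Ube3a did not move alike. 9330162G02Rik spans 30942 bases on the opposite strand and reaches past the Ube3a start. It overlaps the 5′ part of Ube3a over 26039 bases, of which 1796 are exonic in both. 9330162G02Rik stood at 192 to 239 CPM in the 9 WT libraries and at 121 to 174 in the 10 KO libraries. The library labelled WT_day 3 had 161. The 9 WT and the KO libraries did not overlap, a separation whose share over all tested genes was not counted. 9330162G02Rik fell by 0.49 ± 0.054 over both times (1.40-fold, adjusted p = 1.7e-05) and by 0.64 ± 0.0766 at night (1.56-fold, adjusted p = 6.42e-05). Gm44562, which lies in Ube3a intron sequence on the opposite strand, fell by 0.53 ± 0.0955 (adjusted p = 0.00907), and Gm44559, which lies likewise, had a change of -0.41 ± 0.11 (adjusted p = 0.0585) and fell at night by 0.60 ± 0.157 (adjusted p = 0.0236).

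Gm44560 lies farther downstream in Ube3a, also on the opposite strand, and 2025 of its 3115 bases are Ube3a exon. Its level was 37.0 to 42.2 CPM in the 9 WT libraries, 36.5 in the library labelled WT_day 3 and 35.7 to 44.8 in KO, with a change of 0.01 ± 0.0395 (adjusted p = 0.894). In this exon-rich window the 9 WT libraries all lay inside the KO range, and 6 of the 10 KO libraries lay inside the WT range. The difference between the windows was tested as the ratio of 9330162G02Rik to Gm44560 within each library, which does not depend on scaling. That ratio was 541% ± 27.4 (SD, n = 9) in WT without the library labelled WT_day 3, where it was 441%, and 376% ± 35.8 (SD, n = 10) in KO. The log2 difference was -0.50 over all 20 libraries (two-sided permutation test, p = 1e-05, the smallest that 100000 resamples can give), with the 10 KO libraries below the 10 WT libraries. Both times gave the same direction, -0.41 by day and -0.59 at night, each with an exact two-sided permutation p of 0.00794, the smallest that 5 against 5 libraries can give. This ratio was chosen after the values were seen.

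**Figure D3:**
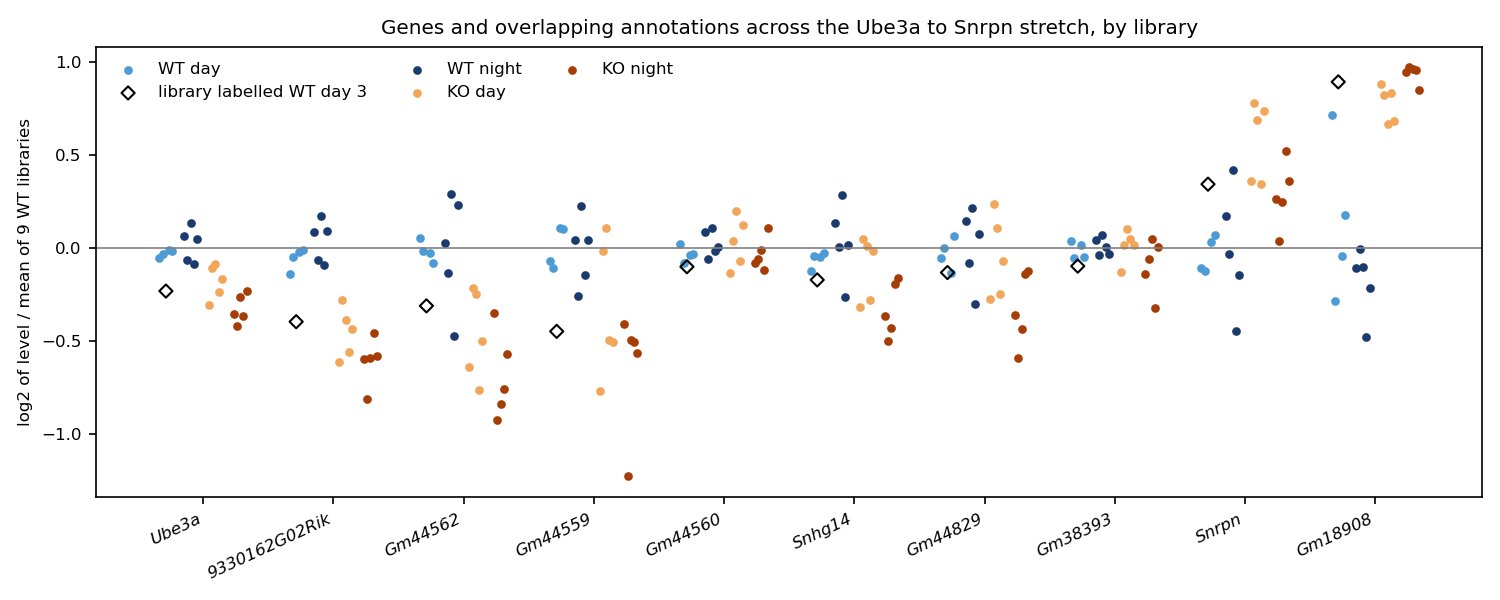
Level of each gene and overlapping annotation relative to the mean of the 9 WT libraries (y axis, log2 scale), in chromosomal order from Ube3a to Snrpn except that the windows follow their host gene. The KO points of 9330162G02Rik, 121 to 174 CPM, lie below the points of those 9 libraries and those of Gm44560 do not, and the KO points of Gm18908, 2.90 to 3.57 CPM, lie at the top with the library labelled WT day 3 and WT day 1.

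Snhg14, the long paternal transcript that runs toward Ube3a from the other side, had 990, 1046, 1044 and 1060 CPM in WT_day 1, 2, 4 and 5 and 958 in the library labelled WT_day 3. In WT_night 1 to 5 it had 1185, 1083, 1312, 899 and 1091 CPM. In KO_day 1 to 5 the values were 866, 1115, 1088, 887 and 1066, and in KO_night 1 to 5 they were 837, 764, 801, 944 and 965. KO_day lay across the WT_day range, and at night 1 WT library, WT_night 4, lay among the KO_night libraries.

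At night Snhg14 fell by 0.37 ± 0.0876 (1.29-fold, adjusted p = 0.0185), and by day the change was -0.02 ± 0.0875 (adjusted p = 0.970). The average was -0.20 ± 0.0619 (adjusted p = 0.092) and the interaction -0.35 ± 0.124 (adjusted p = 0.117). Neither passed, although both did without WT_night 4 (adjusted p = 0.0243 and 0.0324) and the average also with DESeq2 (adjusted p = 0.0358). Gm44829, which lies inside Snhg14 on the opposite strand and shares no exon with it, also fell at night, by 0.35 ± 0.105 (adjusted p = 0.0362), from 14.1 ± 1.93 CPM (SD, n = 5) in WT_night to 11.1 ± 1.52 (SD, n = 5) in KO_night. The annotated Snhg14 overlaps the last 3613 bases of Ube3a, and RefSeq draws it longer at both ends, from 59272737 to 60450177, where it also covers Snrpn.

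Long genes as a class were lower at night in KO, and Snhg14 is a long gene. Of 2701 genes with a span of 100 kb or more, 31.1% fell at night, with a median log2 change of -0.18, against 1.79% of 8044 genes under 10 kb, with a median of 0.08. Snhg14 spans 667.8 kb and Ube3a 82.8 kb, and among the 11404 genes of 10 to 100 kb 4.5% fell, with a median of 0.00. With a trend over gene length removed from each library, the night change of Snhg14 was -0.07 ± 0.0383 (adjusted p = 0.251) and that of Ube3a -0.27 ± 0.0464 (1.2-fold, adjusted p = 0.00827). That trend was fitted over genes that include Snhg14, and whether the Snhg14 fall is part of the class change was not tested. The night call of Snhg14 was also absent without WT_night 1, without WT_night 3, without KO_night 2 or without KO_night 3, with adjusted p up to 0.0728 over the 20 fits that leave out 1 library, and it was absent with the time field (-0.17, adjusted p = 0.918), with the 14 libraries of agreeing labels (-0.20, adjusted p = 0.521) and without WT_night 1, 2 and 3 together (-0.21, adjusted p = 0.497).

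Snrpn encodes SmN, a neuronal protein of the Sm ring of spliceosomal particles. The annotated Snrpn gene stood at 30.8, 30.4, 33.9 and 34.9 CPM in WT_day 1, 2, 4 and 5. The library labelled WT_day 3 had 42.1. WT_night 1 to 5 had 37.5, 32.5, 44.4, 24.4 and 30.1 CPM. KO_day 1 to 5 had 42.6, 57.1, 53.5, 42.2 and 55.3 CPM, and KO_night 1 to 5 had 39.8, 34.1, 39.4, 47.7 and 42.6. By day each KO library was above each WT library, the library labelled WT_day 3 lying just under the lowest of them, and at night the groups overlapped through WT_night 1 and WT_night 3.

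Over both times Snrpn rose by 0.40 ± 0.088 (1.32-fold, adjusted p = 0.0293). By day the change was 0.54 ± 0.124 (1.46-fold, adjusted p = 0.0787), which became 0.64 ± 0.127 (1.55-fold, adjusted p = 0.0423) without the library labelled WT_day 3, and at night it was 0.27 ± 0.125 (adjusted p = 0.152). The day change also passed without WT_night 3, WT_night 4, KO_day 1 or KO_night 2 (adjusted p from 0.0268 to 0.208 over the 20 fits that leave out 1 library). The averaged call was lost without WT_day 1, without WT_day 2, without KO_day 5 or without KO_night 3, with adjusted p from 0.00935 to 0.0652 over the 20 fits. It was also lost with the time field (0.43, adjusted p = 0.0772) and with the 14 libraries of agreeing labels (0.50, adjusted p = 0.067). With the length trend removed Snrpn rose in each comparison, by 0.47 averaged (adjusted p = 0.000862), 0.52 by day (0.0189) and 0.42 at night (0.0231).

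Most of the annotated Snrpn span lies upstream of the coding exons. Its span of 157.7 kb shares 22570 bases with Gm38393 (ENSMUSG00000000948, 59974149 to 60005064) on the same strand, and the remaining 135155 bases lie from 60005065 upward, across the main start and the third upstream start to the second one. How reads in the shared bases were assigned is not given in the sources used here. Snurf, whose span lies in these bases, had 0 counts in every library, as did each nested gene on the same strand. The Snrpn counts may therefore leave out the shared bases, the coding exons included. Gm38393 holds the Snurf gene span (59995449 to 60005049) and the 3′ part of Snrpn with its coding exons, and its level was higher, at 104 ± 3.27 CPM (SD, n = 9) in WT without the library labelled WT_day 3 and 101 ± 8.41 (SD, n = 10) in KO. It did not pass in any genotype comparison (0.04 by day, -0.10 at night, -0.03 averaged, adjusted p = 0.880, 0.250 and 0.747). The rise of the annotated Snrpn gene was therefore not seen in Gm38393. However, the Gm38393 counts may leave out the shared bases too, the coding exons included. Outside Snrpn and Snhg14, Gm38393 has 6735 bases, from 59975760 to 59982494. Whether the coding exons changed is therefore not known from these counts.

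Snrpn was thus tested against Gm38393 directly. The level of Snrpn was 32.0% ± 4.81 (SD, n = 9) of that of Gm38393 in WT without the library labelled WT_day 3, which had 43.5%, and 45.1% ± 7.84 (SD, n = 10) in KO. The log2 difference of this ratio was 0.45 over 20 libraries (two-sided permutation test, p = 0.00096) and 0.49 without that library (p = 0.00037). It was 0.50 by day (exact permutation p = 0.0159) and 0.39 at night (exact permutation p = 0.0556). This ratio too was chosen after the values were seen.

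Inside the upstream stretch of Snrpn, 1 more annotation was measured, the pseudogene Gm18908 (60132202 to 60133684, opposite strand), near the second upstream start, with 148 exonic bases shared. It stood at 1.31 to 1.82 CPM in WT_night, at 2.99, 1.5, 1.77 and 2.07 in WT_day 1, 2, 4 and 5, at 3.39 in the library labelled WT_day 3, and at 2.90 to 3.57 in the 10 KO libraries. At night the groups were wide apart, and by day WT_day 1 and the library labelled WT_day 3 were at KO levels. Gm18908 rose by 0.75 ± 0.111 over both times (1.69-fold, adjusted p = 0.00111) and by 1.11 ± 0.161 at night (2.15-fold, adjusted p = 0.00113). By day the change was 0.40 ± 0.152 (adjusted p = 0.361), and the interaction of 0.70 ± 0.222 did not pass (adjusted p = 0.0915).

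The ratio of Snrpn to Snhg14, both paternally expressed, separated the genotypes in every library. It was 3.11%, 2.91%, 3.25% and 3.29% in WT_day 1, 2, 4 and 5, and 2.71% to 3.38% in WT_night. In KO_day it was 4.75% to 5.18%, and in KO_night 4.41% to 5.05%. The library labelled WT_day 3 was at 4.39%, above each other WT library and just below the lowest KO library. The log2 difference was 0.61 (1.53-fold, two-sided permutation test over 10 and 10 libraries, p = 1e-05, the smallest that 100000 resamples can give), with 10 of 10 KO libraries above each WT library. Without the library labelled WT_day 3 it was 0.66, by day 0.57 and at night 0.66 (exact two-sided permutation p = 0.00794 at each time, the smallest possible). With the 14 libraries of agreeing labels it was 0.62 (permutation p = 0.00064), and without WT_night 1, 2 and 3 together 0.61 (permutation p = 0.00012). Both genes belong to a list chosen with earlier results of these data known. Their spans differ (157.7 kb for Snrpn, 667.8 kb for Snhg14), and no length trend was removed from the ratio.

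**Figure D4:**
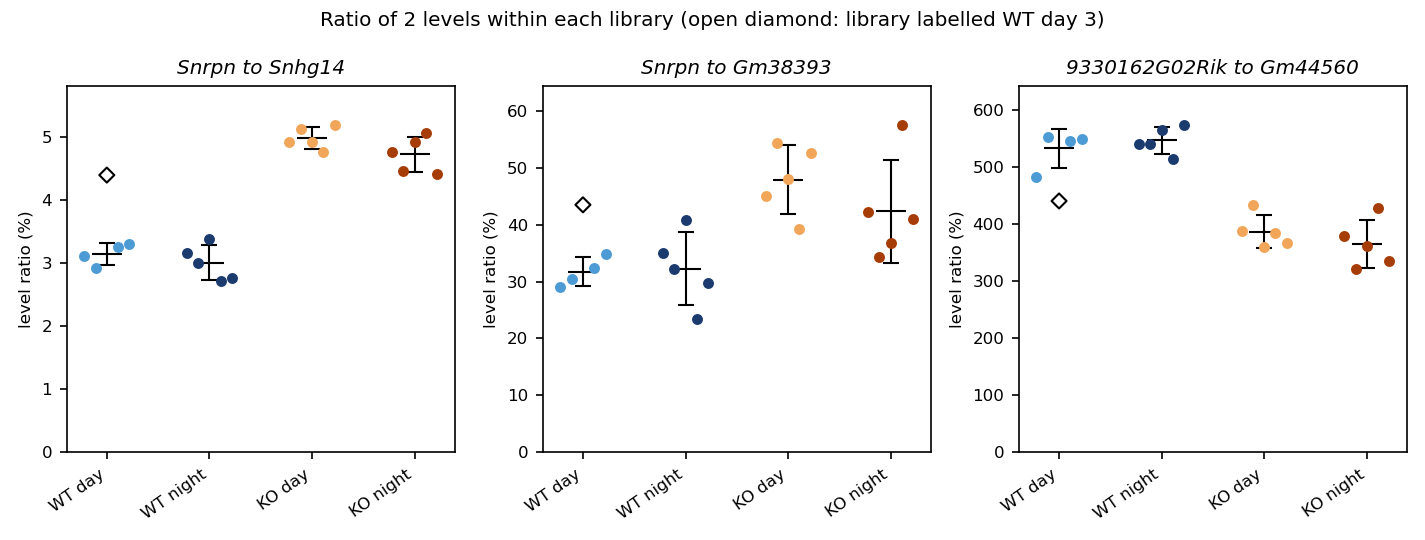
Ratio of 2 levels within each library, in percent (y axes, from 0), by group, with the mean and SD (bars) without the library labelled WT day 3, the open diamond. Snrpn to Snhg14 is 2.71% to 3.38% in the 9 WT libraries and 4.41% to 5.18% in KO, Snrpn to Gm38393 overlaps between genotypes, and 9330162G02Rik to Gm44560 is lower in each KO library.

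Peg12, a paternally expressed gene related to the Frat inhibitors of the kinase GSK3, was the member nearest to the deletion and among the scarcest. Its level was 0.0790 to 0.272 CPM in WT_day, 0.204 to 0.476 in WT_night, 0.248 to 0.495 in KO_day and 0.241 to 0.604 in KO_night. The groups overlapped at both times, with 4 of the 9 WT libraries below each KO library. The change was 0.60 ± 0.217 over both times (adjusted p = 0.135), 0.98 ± 0.314 by day (adjusted p = 0.252) and 0.21 ± 0.299 at night (adjusted p = 0.673), none of which passed. The library labelled WT_day 3 had 0.209 CPM, below the KO range.

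Atp10a, the flippase next to Ube3a, had 32.1 ± 1.33 CPM (SD, n = 4) in WT_day without the library labelled WT_day 3, which was at 38.1, above the other 19 libraries. WT_night was at 29.7 ± 3.01 (SD, n = 5), KO_day at 28.8 ± 3.0 (SD, n = 5) and KO_night at 26.3 ± 2.73 (SD, n = 5). Its change of -0.19 ± 0.057 over both times did not pass (adjusted p = 0.0765), but did without WT_night 4 or without KO_day 2 (adjusted p down to 0.0357) and with DESeq2. By day it was -0.21 ± 0.0801 (adjusted p = 0.362) and at night -0.18 ± 0.0811 (adjusted p = 0.144).

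None of the 5 flanking genes passed in a genotype comparison. Herc2, a giant ubiquitin ligase that binds and stimulates the Ube3a protein, was at 277 to 310 CPM in the 9 WT libraries and 286 to 306 in KO, with an averaged change of 0.01 ± 0.0263. With the length trend removed Herc2 rose at night by 0.15 ± 0.044 (adjusted p = 0.0427), against -0.00 ± 0.0372 without it. Nipa1 and Nipa2, magnesium transporters, had averaged changes of -0.05 ± 0.0377 and -0.04 ± 0.038. Nipa1 was at 43.7 to 50.4 CPM in the 9 WT libraries and 41.0 to 52.8 in KO, and Nipa2 at 28.9 to 32.7 and 24.7 to 32.2.

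Cyfip1, a subunit of the actin-regulating WAVE complex and partner of the fragile X protein, was at 78.3 to 85.2 CPM in the 9 WT libraries and 77.9 to 89.3 in KO, with an averaged change of 0.05 ± 0.0285 (adjusted p = 0.323). Nipa2 and Cyfip1 overlap tail to tail over 1316 bases on opposite strands. Oca2, a melanosome membrane protein, was at 0.233 to 0.994 CPM in WT and 0.329 to 0.760 in KO, with a change of -0.13 ± 0.222. A230056P14Rik, which overlaps Nipa1 on the opposite strand, had a change of -0.04 ± 0.0496, and Gm44616 inside Cyfip1 one of 0.08 ± 0.0768, neither of which passed.

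Time of day moved none of the 10 genes past the threshold. Night against day in WT called 0 of 10, beside 0.275% of all tested genes, and night against day in KO 0 of 10, beside 0.0721%. At an unadjusted p under 0.05 there were 1 and 3 of the 10, and 3533 and 3917 of all tested genes, and DESeq2 also called 0 of 10 in both. Peg12 had the largest night change in WT, 0.70 ± 0.33 (adjusted p = 0.301), from 0.199 to 0.326 CPM. In KO the night changes of Ube3a (-0.15 ± 0.0572, adjusted p = 0.189), Snhg14 (-0.22 ± 0.0875, 0.195) and Snrpn (-0.30 ± 0.123, 0.208) had the lowest p. The interaction called 0 of 10 and 0.0% of all genes with edgeR, with 2 of the 10 and 4910 of all genes at an unadjusted p under 0.05, while DESeq2 called 1223 genes, Ube3a among them.

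Relatives and partners of the 10 genes had calls in several lists, beside 1.32% of all tested genes called over both times and 11.9% at night. With that many genes called at night, single night calls say little about a list, here or in the next paragraph. Of the other genes of the stretch, 6 of 9 listed could be tested and 3 fell over both times. Of these 3, Ndn and Magel2 are the deleted genes, whose falls the genotype fixed in advance. Gabrg3, a GABA receptor subunit gene, fell by 0.38 ± 0.074 (adjusted p = 0.0186). The median of the tested genes, -0.26, includes Ndn and Magel2. None of the 7 Sm core genes, partners of SmN, passed over both times, and at night Snrpd2 (0.23 ± 0.0664, adjusted p = 0.0323) and Snrpb (0.17 ± 0.0539, adjusted p = 0.0471) rose, with a median of 0.08 beside 0.01 over all tested genes. Of 18 ligases related to Herc2 and Ube3a none passed over both times, with a median of -0.00, and Nedd4l fell at night by 0.27 ± 0.0809 (adjusted p = 0.0343).

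The 8 WAVE complex partners of Cyfip1 had no call in a genotype comparison, with a median of 0.00 over both times. Among 12 flippase genes Atp9a rose at night (0.20 ± 0.0461, adjusted p = 0.018). Among 14 tested magnesium transporter genes Cnnm1 rose over both times (0.14 ± 0.0337, adjusted p = 0.0386) and Nipal2 fell at night by 0.26 ± 0.064 (adjusted p = 0.0196). Of the pigment cell genes 4 of 8 could be tested and Mitf fell at night by 0.33 ± 0.104 (adjusted p = 0.0435), and Tyr, Tyrp1, Dct and Mlana were under the filter on low counts. Frat1, a relative of Peg12, rose at night by 0.20 ± 0.055 (adjusted p = 0.0265).

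Among markers of cell types, likewise beside 1.32% of all tested genes over both times and 11.9% at night, 3 of 7 oligodendrocyte markers rose at night and 1 (Mag) over both times, with a median of 0.22 at night, and their summed level was 2000 to 2480 CPM in WT_night and 2170 to 2910 in KO_night. Of 9 hypothalamic markers 3 rose over both times (Oxt, Avp and Otp) and 2 at night, with a summed level of 699 to 915 CPM in WT_night and 954 to 1170 in KO_night. Of 6 neuronal markers none passed at either time, with a median of -0.00 at night and a summed level of 2800 to 3020 CPM in WT_night and 2790 to 3060 in KO_night. Single markers of other types also passed at night: Aldh1l1 of 7 astrocyte markers (0.22 ± 0.0578, adjusted p = 0.0232) and Cspg4 of 5 oligodendrocyte precursor markers (0.21 ± 0.0704, adjusted p = 0.0494) rose. P2ry12 of 6 microglial markers fell by 0.18 ± 0.0486 (adjusted p = 0.0239), Rora of 3 thalamic markers by 0.45 ± 0.119 (adjusted p = 0.0236) and Alas2 of 3 blood markers by 0.45 ± 0.0962 (adjusted p = 0.0141), and Alas2 also over both times, by 0.30 ± 0.0677 (adjusted p = 0.0314). Their part in the falls of Ube3a and Snhg14 was not tested.

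Genes overlapping Ube3a or Snrpn were left out of the search for genes with levels like theirs. Among 13103 genes compared over the 20 libraries, those closest to Ube3a were Gm44643 (Pearson r = 0.937 of log2 scaled CPM), Dnajc24 (0.909) and the glutamate receptor gene Grm5 (0.893). Those nearest to Snrpn, among 13107 compared, were Gm9801 (0.964), Wdr31 (0.845) and Ttc34 (0.792). Gm44643, at 60922922 to 60961385, and Gm9801, at 62094506 to 62209479, lie on chromosome 7 between Snrpn and Ndn. These are descriptions over libraries that share genotype and time, with no test.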

How the data were processed

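Total RNA of 20 hypothalamus libraries was depleted of ribosomal RNA and sequenced paired-end and strand-specific, per the labels. The authors deposited raw counts per gene, made with HISAT2, featureCounts and mm10 per the submitters' processing notes, with versions, annotation and strand setting not given in the sources used here. The deposited table of WT_night 3 is laid out differently and, as another format, was read as the same raw counts. Of 53801 genes, 53706 matched GENCODE M21. All were fitted with edgeR 4.0.16 (R 4.3.3; quasi-likelihood F-test, TMM, low genes dropped by filterByExpr at a count of 10, leaving 22181, 4 group means, Benjamini-Hochberg), which was tested on simulated data. DESeq2 1.42.0 was an alternative. "Rose" and "fell" mean an adjusted p under 0.05.

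Named genes are the 10 members, annotations overlapping them with a mean of at least 1 CPM and called genes of the lists (at most 4 by p). Also named are the 3 most correlated genes (at least 5 CPM, not overlapping the member) of Ube3a and Snrpn. Members and lists were chosen with earlier results of these data known. Over all 190 pairs of libraries, chi-square per degree of freedom was at least 5.58, so each pair differed by more than sampling noise. Alternatives changed the tool, scaling, filter, time label, gene length trend, replicate block and libraries; leaving out WT_night 1, 2 and 3 together was taken over from an earlier analysis of these data. One gene of the lists is not reported here.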

Additional observations from a re-analysis of the deposited data

Results flagged for a closer look

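In 40 groups of 5 libraries (10 genes in 4 groups), the highest or lowest library was set against the other 4 by Dixon's test (critical value 0.710), which chance passes in about 1 of 20 groups. Ube3a in the library labelled WT_day 3 was 600 CPM, below the other WT_day libraries at 679 to 699. Herc2 in WT_night 3 was 310 CPM, above the others at 297 to 300. Nipa2 in KO_day 1 was 30.6 CPM, above the others at 29.1 to 29.5.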

How the results depend on the processing

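Alternatives were tried for each count and change. Of the 10 genes, the averaged comparison called 2 in edgeR, 4 with DESeq2 (Atp10a and Snhg14 added), 0 with the time field of the labels, 0 with the libraries whose time labels agree and 1 without WT_night 1, 2 and 3 together (1 to 4 when each library was left out). By day the 0 became 1, Snrpn, with DESeq2, with no filter on low counts, with the gene length trend removed and without WT_night 1, 2 and 3 together (0 to 1 when each library was left out). At night the 2 became 0 with the time field, with agreeing labels and without WT_night 1, 2 and 3 together (1 to 2). With the gene length trend removed, the night calls were Ube3a, Snrpn and Herc2, without Snhg14. The interaction called 1 with DESeq2 (0 to 2). The cause of these differences was not tested.

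Over all genes, the averaged comparison called 293, and 1052 with DESeq2, 30 with the time field, 58 with agreeing labels and 19 without WT_night 1, 2 and 3 together (47 to 1265 when each library was left out). By day it called 25, and 187 with DESeq2, 60 with no filter, 48 with the replicate block, 149 with the time field, 89 with agreeing labels and 59 with the length trend removed (15 to 73). At night it called 2649, and 1690 with the replicate block, 4 with the time field, 6 with agreeing labels, 1172 with the length trend removed and 11 without WT_night 1, 2 and 3 together (122 to 4355). Night against day in WT called 61, and 387 with DESeq2, 108 with no filter, 0 with the time field, 104 with agreeing labels and 9 without WT_night 1, 2 and 3 together (9 to 179). Night against day in KO called 16, and 581 with DESeq2, 70 with no filter, 0 with the time field, 98 with the length trend removed and 138 without WT_night 1, 2 and 3 together (0 to 328). The KO against WT count at night fell to 286 without WT_night 1, 122 without WT_night 3, 295 without KO_night 2 and 512 without KO_night 3, and rose to 4355 without WT_night 4 and 4252 without KO_night 4. The interaction called 0, and 1223 with DESeq2, 105 with no filter, 8 with the length trend removed and 1 without WT_night 1, 2 and 3 together (0 to 1555).

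The libraries with the same number did not deviate together (mean r -0.023 to 0.029), and the replicate block changed the call of none of the 10 genes in any of the 6 comparisons. For the Snrpn to Snhg14 ratio, taking numbers as pairs gave 0.61 (exact sign-flip p = 0.00195). The raw count ratio gave 0.61, and the time field leaves this ratio as it is. The Snrpn to Gm38393 ratio missed the threshold at night alone, at 0.39. Added after the data were seen were both ratios to other annotations and the splits of ratios by time.

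Some changes near 0 turned sign. Without WT_night 1, 2 and 3 together Oca2 was 0.34 averaged and 0.77 at night, Nipa1 0.05 and Herc2 0.01 at night. With the length trend removed, night values were 0.01 for Nipa1, 0.15 for Herc2 and 0.06 for Oca2. With no filter Herc2 was 0.0015 at night. With the time field Oca2 was 0.17 at night, and with agreeing labels 0.16, with Cyfip1 at -0.03. Leaving out each library, Oca2 ran from -0.25 to 0.07 averaged, from -0.18 to 0.05 by day and from -0.41 to 0.24 at night, and Snhg14 from -0.06 to 0.03 by day. At night Cyfip1 ran from -0.0033 to 0.04, Nipa2 from -0.05 to 0.04, Nipa1 from -0.07 to 0.02, Herc2 from -0.01 to 0.0038 and Peg12 from -0.01 to 0.37.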
